A study of Mus musculus with 6 samples.

Results

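The genes described here are 43 microglia-enriched genes of the mouse striatum, the input nucleus of the basal ganglia, compared between WT mice and Shank3 transgenic (TG) mice. They were chosen by symbol, as genes known to be expressed in the brain mainly by microglia, and not by a rule on their values. Earlier results of these data were known when the list was chosen. All 43 were found by Ensembl identifier among the 46078 genes of the deposited table, and all 43 had a mean of at least 10 normalized read counts, the minimum for entering the test, as did 17605 genes in all. Striatal RNA of 3 TG and 3 WT mice was sequenced, 1 library per mouse. All 6 animals were males of the C57BL/6J strain at 12 weeks of age with no treatment named, and the TG mice carried in addition a transgene for EGFP-tagged Shank3, a scaffold protein of excitatory synapses. The promoter of the transgene and the cells that express it are not given in the sources used here.

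Microglia are the resident macrophages of brain tissue. They descend from the yolk sac, depend on the receptor Csf1r for survival, survey the tissue with motile processes that follow purines released from cells, and clear debris and synapses with the help of complement. Their identity rests on the transcription factors Spi1 (PU.1), Irf8 and Sall1, and Trem2 signals through its adaptor Tyrobp when the cells meet lipids or debris. In bulk striatal RNA a gene of this kind is read from the tissue as a whole, so that fewer microglia and less RNA per microglial cell cannot be told apart.

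Library totals were between 27689589 and 36647626 recovered reads. Shank3 itself (ENSMUSG00000022623, GRCm38, chr15:89499623-89560261) had 29891, 28309 and 26044 normalized read counts in TG mice 1, 2 and 3 and 13807, 12918 and 13865 in WT mice 1, 2 and 3. Its log2 fold change was 1.05 (SE 0.06, adjusted P value of 7.04e-05 by limma), between 1.01 and 1.10 when each library was left out, and no library went against its label. TG mouse 1 stood apart in other respects. Markers of the choroid plexus had a median log2 ratio to the WT mean of 2.98 in that library, against 1.00 and -0.17 in TG mice 2 and 3, and inflammatory genes were also highest there.

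None of the 43 genes passed an adjusted P value of 0.05 by limma, by the edgeR quasi-likelihood test or by DESeq2. Among all genes tested, limma and edgeR each called 0.00568% and DESeq2 called 0.0398%. At an unadjusted P value under 0.05 by limma, 11 of the 43 genes were lower in the TG striatum, 25.6% of them, against 2.33% of all genes in that direction, and 1 gene, Ccl4, was higher, against 1.98% of all genes. The 11 lower genes were Cx3cr1, Fcgr3, Cd33, C1qa, C1qb, C1qc, Ctss, Cd68, Itgb5, Spi1 and Ly86. All 43 genes were read in the same mice, so counts over the list are not counts of independent events. The count of 11 was 7, 8 and 2 without TG mice 1, 2 and 3 and 6, 2 and 4 without WT mice 1, 2 and 3. Over all genes tested, the count lower at that P value was 410 with all libraries, 801, 507 and 237 without TG mice 1, 2 and 3 and 390, 319 and 328 without WT mice 1, 2 and 3. The members' count was 10 by edgeR and 5 by DESeq2, where the count over all genes was 423 and 228. Without TG mouse 1 the genes no longer under 0.05 were Cx3cr1 (log2 fold change -0.11, unadjusted P value of 0.0851), Cd33 (-0.18, 0.115), Ctss (-0.14, 0.0731) and Ly86 (-0.17, 0.166).

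The shift was small and its direction was shared by most of the genes. The log2 fold change was below 0 for 35 of 43 genes, 81.4%, compared with 50.8% of all genes tested, and the median over the 43 genes was -0.10, compared with -0.0018 over all genes. The quartiles of the list were -0.17 and -0.02, and the whole list ran from -0.36 for Tlr2 to 1.03 for Ccl4. The standard error of a single member had a median of 0.08, close to the size of the shift itself. In 11 genes (Cx3cr1, Trem2, Fcgr3, Cd33, C1qa, C1qc, Cd68, Itgam, Itgb5, Tmem119 and Ly86) every TG mouse was below every WT mouse, 25.6% of the list against 5.05% of all genes, and in 1 gene, Ccl4, every TG mouse was above, against 5.06% of all genes. With 3 mice per group the exact two-sided permutation test of a single gene cannot go below 0.1, the value for each of these 12 genes.

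**Figure D1:**
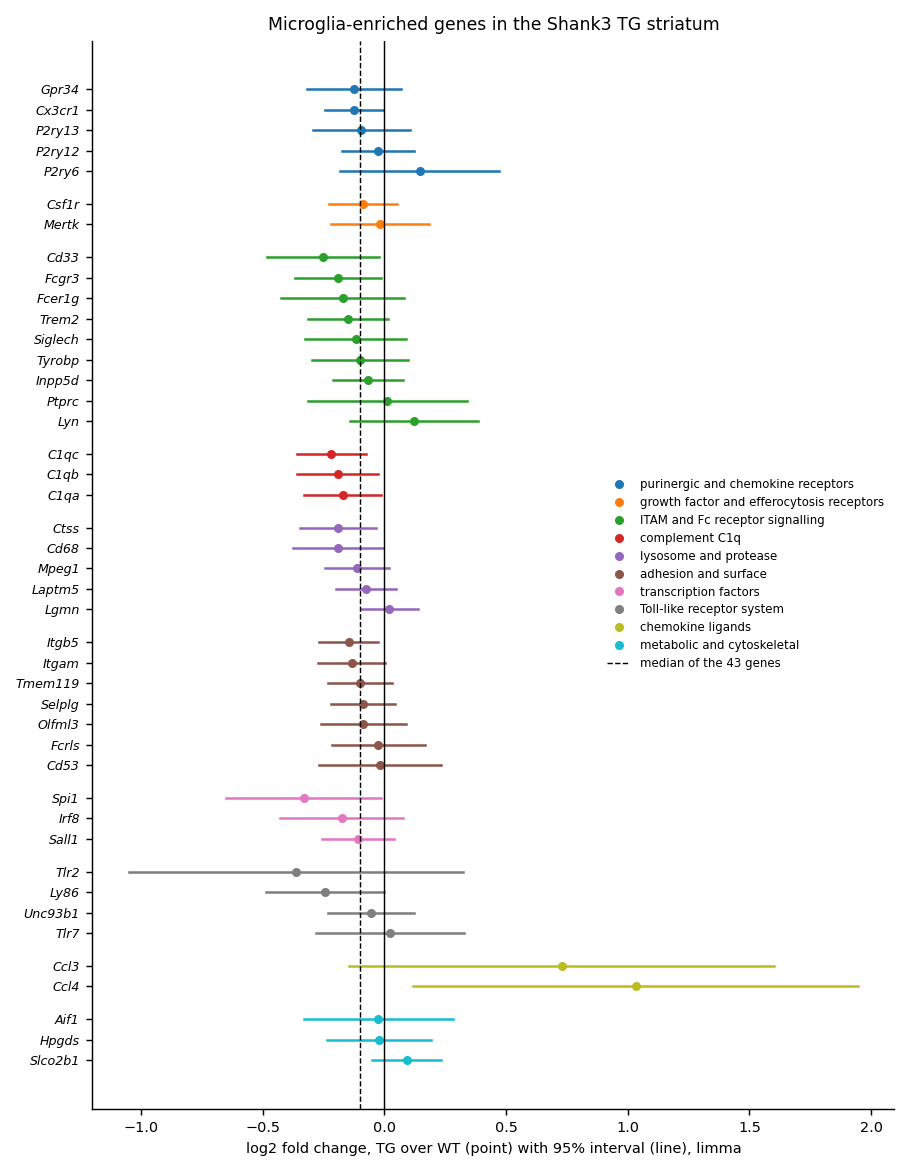
Log2 fold change of each of the 43 microglia-enriched genes, TG over WT (points, x axis), with its 95% interval from limma (lines), n = 3 mice per group. Genes are grouped by role (colours), the solid line is 0 and the dashed line is the median of the 43 genes at -0.10. The intervals of 40 of the 43 genes cross the dashed line, as do those of 79.7% of all genes tested.

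Read by mouse, the median deviation of the 43 genes from the WT mean was -0.11, -0.05 and -0.11 on the log2 scale in TG mice 1, 2 and 3 and -0.02, 0.02 and 0.02 in WT mice 1, 2 and 3. All 3 TG libraries were thus below the 3 WT libraries, with TG mouse 2 the nearest to them, whereas the same median over all genes tested lay between -0.0010 and 0.0021 in the 6 libraries. In TG mouse 1, 25 of the 43 genes (58.1%) were below the lowest WT library, as were 17 (39.5%) in TG mouse 2 and 23 (53.5%) in TG mouse 3. Over all genes these shares were 26.3%, 27.6% and 26.4%. Above the highest WT library were 3, 6 and 4 of the 43 genes (6.98%, 14.0% and 9.30%), against 25.9%, 26.5% and 26.8% of all genes. The list summed to 30614, 32122 and 30712 normalized read counts in TG striata and to 32641, 33614 and 33257 in WT striata. Without TG mouse 1 the median log2 fold change of the list was -0.08 and 31 of 43 genes were below 0.

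**Figure D2:**
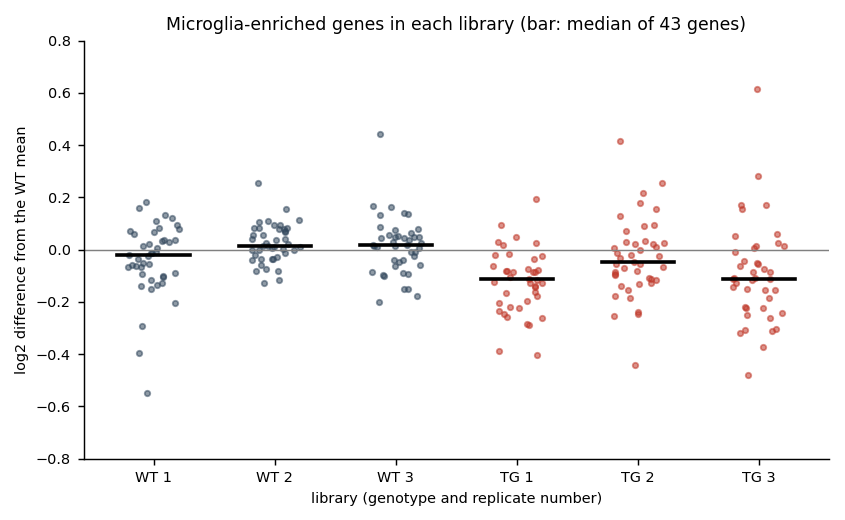
Deviation of each of the 43 microglia-enriched genes from its WT mean (y axis, log2 scale) in each of the 6 libraries (x axis). Points are genes and bars are the median per library, which was -0.11, -0.05 and -0.11 in the TG mice and between -0.02 and 0.02 in the WT mice. The axis ends at 0.8 in either direction, and 3 points beyond it, Ccl3 and Ccl4 in TG mouse 1 and Tlr2 in TG mouse 3, are not drawn.

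The distance of each gene to the list's own median was read next. The 95% interval of the log2 fold change held the member median of -0.10 for 40 of 43 genes. The exceptions were Ccl4, Lgmn and Slco2b1, each above it. Of all genes tested, 79.7% had an interval that held this value. The median was taken from the same 43 genes, and their median SE of 0.08 is close to its size. Most intervals can therefore hold it whether or not the shift is even, and evenness was not tested. For comparison, the interval held 0 for 31 of 43 genes (72.1%), whereas it held 0 for 95.7% of all genes tested. Once each library was shifted by the median deviation of the 43 genes, 0 genes of the list were lower at an unadjusted P value under 0.05 and 2 were higher. They were Ccl4 (unadjusted P value of 0.0166) and Slco2b1 (unadjusted P value of 0.0206). The shift was set by these same 43 genes, so few of them could stay lower after it. It moves every gene by the same amount within a library, and 16.2% of all genes were higher at that P value after it. Leaving out Ccl3 and Ccl4, a choice made after their values were seen, gave a median of -0.10 over 41 genes, and their log2 fold changes had an SD of 0.11, compared with 0.24 for the 43. Leaving out Mertk, Sall1, Itgb5, Lgmn, Slco2b1 and Olfml3, which other cells of brain tissue are also known to transcribe, gave -0.10 with 31 of 37 genes below 0. This choice was not planned in advance either, and Lgmn and Slco2b1 are among the exceptions named above.

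The 3 transcription factors had a median log2 fold change of -0.18. Spi1, which opens the macrophage programme and occupies purine-rich elements with a GGAA core, had 118, 91.0 and 88.6 normalized read counts in TG striata and 135, 121 and 117 in WT striata. TG mice 2 and 3 were below all WT mice and TG mouse 1 was level with WT mouse 3 (-0.33, SE 0.14, unadjusted P value of 0.0427). Irf8, the partner of Spi1 at composite elements, had 187, 203 and 205 in TG striata and 195, 231 and 251 in WT striata, with a log2 fold change of -0.18 (SE 0.11). Sall1, which keeps microglia from an inflammatory state, gave -0.11 (SE 0.07). The groups of Irf8 and of Sall1 overlapped.

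Because Spi1 was among the lower genes, the letters of a purine-rich element, GAGGAAGT, were sought on both strands of the promoters of the list. RefSeq promoter sequences of GRCm38.p6, 250 bases before to 50 after a gene's start, were at hand for 31 of the 43 genes. The element was present in 6 of them, 19.4%, and in 3.69% of 27025 genes with such a sequence. It was 1 of 7 overlapping or related letter strings sought, all chosen with earlier results known. The shorter AGGAAGT was present in 35.5% of the 31 genes and 10.7% of all, and GGAAGT in 54.8% and 26.5%. The string GGAAGTG was present in 35.5% and 12.5%, GAGGAAC in 12.9% and 5.96%, and TTCCTC in 61.3% and 31.3%. The composite string GAAGTGAAA was present in 1 gene, 3.23%, against 0.596% of all. The 3 promoters shown here are those of C1qc and Ctss, which are among the 11 lower genes, and of Inpp5d, in which the element lies just before the start. Each runs 5′ to 3′ on the gene's own strand from 250 bases before the RefSeq start to 30 bases past the first exonic base in GENCODE M21, and capitals mark the element or its reverse complement. In C1qc that first exonic base lies 151 bases before the RefSeq start. C1qc is read from chr4:136893036-136893164 (minus strand), Ctss from chr3:95526536-95526815 (plus) and Inpp5d from chr1:87620062-87620341 (plus).
C1qc: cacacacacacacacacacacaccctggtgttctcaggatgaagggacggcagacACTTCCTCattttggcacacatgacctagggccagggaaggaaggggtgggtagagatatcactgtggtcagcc
Ctss: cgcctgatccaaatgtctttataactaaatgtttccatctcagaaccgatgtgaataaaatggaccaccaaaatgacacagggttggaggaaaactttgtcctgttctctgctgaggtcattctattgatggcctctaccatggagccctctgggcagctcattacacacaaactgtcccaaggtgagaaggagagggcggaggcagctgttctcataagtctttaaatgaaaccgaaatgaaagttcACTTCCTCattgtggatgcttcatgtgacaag
Inpp5d: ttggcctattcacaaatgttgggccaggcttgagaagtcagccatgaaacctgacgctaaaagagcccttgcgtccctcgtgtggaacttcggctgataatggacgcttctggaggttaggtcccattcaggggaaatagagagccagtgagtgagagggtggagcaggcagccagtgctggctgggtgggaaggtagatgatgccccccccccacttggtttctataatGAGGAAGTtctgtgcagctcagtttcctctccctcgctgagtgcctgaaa

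The element ended 187 bases before the RefSeq start in C1qc, 36 bases before the first exonic base, and is on the reverse strand there. It ended 41 and 12 bases before the RefSeq start in Hpgds and Inpp5d, on the forward strand, and in Hpgds this is inside the first exon of GENCODE. In Ctss it spans the start, and in Cd53 and Slco2b1 it lies just after it. The median log2 fold change of the 6 genes with the element was -0.04 (5 below 0), beside -0.12 for the 25 genes without it (22 below 0). A match of letters is not a bound site, and binding was not measured. The shares of promoters with each string set the list against genes of all kinds and carry no information on TG against WT.

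The complement component C1q, whose 3 chains are made in the brain almost wholly by microglia and which tags synapses and debris for clearance, had a median log2 fold change of -0.19 in the TG striatum, and all 3 chains were among the 11 lower genes. The 3 genes lie side by side on chromosome 4 (GRCm38, C1qa at chr4:136895917-136898803, C1qb at chr4:136880129-136886187, C1qc at chr4:136889804-136893065). C1qc, whose promoter is printed above, had 1062, 1127 and 1002 normalized read counts in TG mice 1, 2 and 3 and 1180.0, 1305 and 1227 in WT mice, and every TG mouse was below every WT mouse. Its log2 fold change was -0.22 (SE 0.06), the smallest unadjusted P value of the list at 0.00595 by limma (adjusted P value of 0.971), and it stayed between -0.26 and -0.18 when each library was left out. C1qa had 1159, 1138 and 986 in TG striata and 1175, 1293 and 1223 in WT striata. The groups did not overlap for C1qa either, although TG mouse 1 was close to the lowest WT mouse (-0.17, SE 0.07, unadjusted P value of 0.0357). C1qb had 1188, 1155 and 1037 in TG striata and 1169.7, 1387 and 1309.6 in WT striata. Here WT mouse 1 lay inside the range of the TG mice, and the log2 fold change was -0.19 (SE 0.08, unadjusted P value of 0.0281). In all 3 chains TG mouse 3 had the lowest count of the 6 mice.

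**Figure D3:**
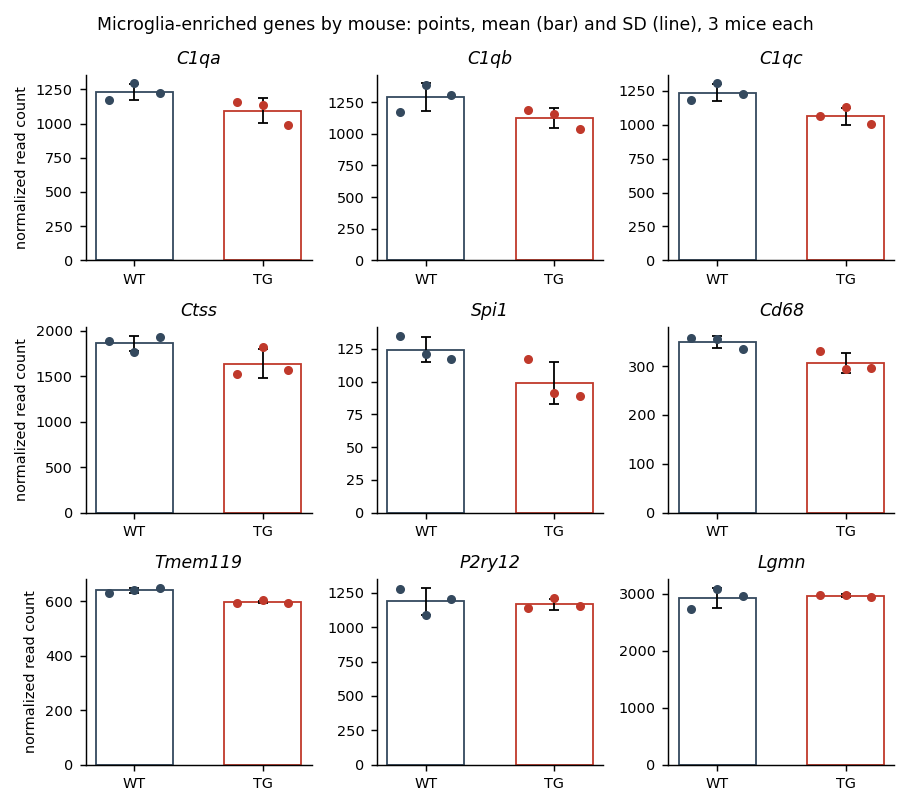
Normalized read counts (y axes, each starting at 0) of 9 microglia-enriched genes in the 3 WT and 3 TG mice. Points are mice, bars are group means and lines are the SD over 3 mice. The TG points of C1qc lie between 1002 and 1127, all below the WT points.

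Lysosomal genes serve the digestion of what microglia engulf. Ctss, cathepsin S, a cysteine protease of antigen processing, had 1525, 1821 and 1566 normalized read counts in TG striata and 1892, 1769.5 and 1930.1 in WT striata. TG mouse 2 lay inside the WT range and the other two TG mice were below it (-0.19, SE 0.07, unadjusted P value of 0.0218). Cd68, a membrane glycoprotein of phagocytic lysosomes, had 330.4, 294 and 295 in TG striata and 358, 355 and 335 in WT striata. The groups of Cd68 did not overlap (-0.19, SE 0.08, unadjusted P value of 0.0455). Mpeg1, a pore-forming protein of phagosomes, and Laptm5, a lysosomal transmembrane protein, had log2 fold changes of -0.11 and -0.08 with overlapping groups. Lgmn, the asparaginyl protease legumain, departed from the rest of this group with 2981, 2975 and 2937 in TG striata and 2736, 3089 and 2950.1 in WT striata, giving a log2 fold change of 0.02 (SE 0.05, 95% interval -0.10 to 0.14).

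Among the receptors through which microglia sense their surroundings, Cx3cr1, the receptor for the neuronal chemokine fractalkine, had 1697, 1728 and 1737 normalized read counts in TG striata and 1925, 1951 and 1755 in WT striata. The 3 TG mice were below the 3 WT mice, with WT mouse 3 closest to them (-0.12, SE 0.05, unadjusted P value of 0.0439). P2ry12, the ADP receptor that steers process motility and a defining marker of homeostatic microglia, had 1136, 1210.5 and 1152 in TG striata and 1279.5, 1086 and 1202 in WT striata. The TG mice lay within the WT range, and the log2 fold change of P2ry12 was -0.03 (SE 0.07, 95% interval -0.17 to 0.12). P2ry13, another ADP receptor, and Gpr34, a receptor for lysophosphatidylserine, gave -0.09 and -0.13 with overlapping groups. P2ry6, the UDP receptor linked to phagocytosis, was the one gene of these 5 above 0, at 0.14 (SE 0.15), and had the lowest level per length of them. Csf1r, the receptor for CSF1 and IL-34, had 3524, 4059.8 and 3918 in TG striata and 3817, 4109 and 4281 in WT striata, with a log2 fold change of -0.09 (SE 0.06), and -0.03 without TG mouse 1. Of its annotated exon bases 15.1% are shared with Hmgxb3 on the opposite strand, and the library kit does not mark strand, so reads of that stretch cannot be told apart. Mertk, a receptor for the uptake of dying cells that astrocytes also make, gave -0.02 (SE 0.09).

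The receptors and adaptors of the ITAM pathway, a tyrosine-based activation motif, and their inhibitory counterparts were below 0 in 7 of 9 genes with a median of -0.12. Trem2, a lipid-sensing receptor, had 374, 409 and 378 normalized read counts in TG striata and 419, 429 and 439.8 in WT striata. Every TG mouse was below every WT mouse, but the unadjusted P value was 0.0677 (-0.15, SE 0.07). Its adaptor Tyrobp had 326, 329 and 309.6 in TG striata and 362, 365 and 310.2 in WT striata, and WT mouse 3 was as low as TG mouse 3 (-0.10, SE 0.09). The Fc receptors for immunoglobulin were also below 0. Fcgr3 had 318, 305 and 289 in TG striata and 342, 361 and 338 in WT striata without overlap (-0.19, SE 0.08, unadjusted P value of 0.038), and the common gamma chain Fcer1g gave -0.17 (SE 0.11) with TG mouse 1 inside the WT range. Cd33, a sialic acid receptor, had 196, 215 and 237 in TG striata and 238, 260.0 and 272 in WT striata. The highest TG mouse of Cd33 was just under the lowest WT mouse (-0.25, SE 0.10, unadjusted P value of 0.0336). Siglech, a sialic acid receptor that signals through Tyrobp, and Inpp5d, the lipid phosphatase SHIP1 that dampens this signalling, gave -0.12 and -0.07 with overlapping groups, and Siglech gave -0.03 without TG mouse 1. The 2 genes above 0 were Lyn, a Src family kinase, at 0.12 (SE 0.12), and Ptprc, the leukocyte phosphatase CD45, at 0.01 (SE 0.15). Of the exon bases of Lyn 6.09% are shared with Gm26857 on the opposite strand.

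Surface and adhesion genes were below 0 in all 7 cases, with a median of -0.09. Itgb5, an integrin chain that other brain cells also make, had 1321, 1342 and 1227 normalized read counts in TG striata and 1463, 1443 and 1396 in WT striata. The groups did not overlap (-0.15, SE 0.05, unadjusted P value of 0.0231). Tmem119, a membrane protein used as a marker of resident microglia, was very even between mice, with 595, 604 and 594 in TG striata and 631, 642 and 649 in WT striata. Every TG mouse was lower, by a log2 fold change of -0.10 (SE 0.06, unadjusted P value of 0.122). Itgam, the integrin chain CD11b, had 833, 925 and 923 in TG striata and 973, 956 and 1012 in WT striata, again without overlap (-0.13, SE 0.06, unadjusted P value of 0.0549). Of its exon bases 68.7% are shared with Gm49368 on the same strand in GENCODE M21, a gene whose identifier is not among those of the table used here, so its count is uncertain to that extent. Selplg, a ligand of selectins, Olfml3, a secreted olfactomedin-like protein, Fcrls, a scavenger receptor relative, and Cd53, a tetraspanin, lay between -0.09 and -0.02 with overlapping groups.

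Of the Toll-like receptor system, Ly86, an accessory protein of the receptor RP105, had 199, 259.6 and 212 normalized read counts in TG striata and 264, 260.0 and 266 in WT striata. TG mouse 2 was level with WT mouse 2, with less than 1 normalized read between them, and the other two TG mice were well below (-0.24, SE 0.11, unadjusted P value of 0.0484). Tlr2, the receptor for bacterial lipoproteins, was rare and scattered, with 38.6, 31.5 and 19.5 in TG striata and 25.2, 40.2 and 51.1 in WT striata, so that its log2 fold change of -0.36, the lowest of the list, had an SE of 0.31. Tlr7, the endosomal receptor for single-stranded RNA, and Unc93b1, which carries it to endosomes, gave 0.02 and -0.05 with overlapping groups. Of the remaining genes Aif1, the calcium-binding protein IBA1 used to stain microglia, had 120.1, 157 and 150.0 in TG striata and 130.5, 141 and 162 in WT striata, giving a log2 fold change of -0.02 (SE 0.14). Hpgds, a prostaglandin D synthase, gave -0.02 (SE 0.10). Slco2b1, an organic anion transporter that endothelial cells also make, had 619.5, 649 and 677 in TG striata and 602, 602 and 620.5 in WT striata. TG mice 2 and 3 were above all WT mice and TG mouse 1 was level with WT mouse 3 (0.09, SE 0.06, unadjusted P value of 0.181). Of the exon bases of Slco2b1 9.21% are shared with Gm15635 and Gm34280 on the opposite strand, so reads there cannot be told apart.

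The chemokine ligands Ccl3 and Ccl4, which activated microglia release to attract leukocytes and whose genes are neighbours on chromosome 11 (GRCm38, Ccl3 at chr11:83647844-83649355, Ccl4 at chr11:83662584-83664683), had log2 fold changes above 0. Ccl3 had 255, 70.8 and 75.0 normalized read counts in TG striata and 75.5, 62.7 and 61.9 in WT striata. The value of TG mouse 1 was more than 3 times that of any other mouse, and TG mice 2 and 3 lay within the WT range. The log2 fold change was 0.73 (SE 0.39, unadjusted P value of 0.0926) and 0.13 without TG mouse 1. Ccl4 had 54.9, 16.9 and 19.5 in TG striata and 9.16, 15.0 and 13.7 in WT striata. Here TG mice 2 and 3 were also above the highest WT mouse, though TG mouse 2 by few reads (1.03, SE 0.41, unadjusted P value of 0.0304, adjusted P value of 0.971). Without TG mouse 1 the log2 fold change of Ccl4 was 0.52 with an unadjusted P value of 0.148. In TG mouse 1, Lyn was the one other gene of the list above the highest WT mouse, and 25 genes were below the lowest.

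**Figure D4:**
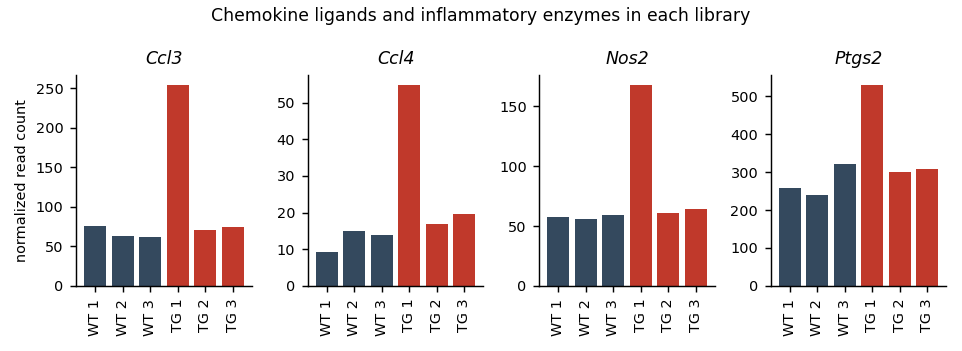
Normalized read counts of Ccl3, Ccl4, Nos2 and Ptgs2 (y axes, starting at 0) in each of the 6 mice (x axis, 1 bar per mouse, no error bars). Ccl3 reached 255 in TG mouse 1 and lay between 61.9 and 75.5 in the other 5 mice.

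Other inflammatory genes were set beside the chemokines. Of 11 inflammatory mediators 8 were tested, and 7 of them were above 0 with a median log2 fold change of 0.29 and none past an unadjusted P value of 0.05. Their median log2 ratio to the WT mean was 0.90 in TG mouse 1, 0.13 in TG mouse 2 and 0.17 in TG mouse 3. The median log2 fold change without TG mouse 1 was 0.08. Nos2, inducible nitric oxide synthase, had 168, 60.7 and 64.3 in TG striata and 57.2, 56.1 and 58.9 in WT striata. Ptgs2, the inducible cyclooxygenase that neurons also make, had 531, 301 and 308 in TG striata and 258, 238 and 322 in WT striata. For both genes TG mouse 1 was the highest of the 6 mice, as it was for Ccl3, Ccl4 and the median of the choroid plexus markers, and the part of that tissue in these values was not tested. Il1b, Il6 and Cxcl10 had means under 10 and were not tested. Of 18 genes that rise in disease-associated microglia, 15 were tested, 7 were below 0 and the median was 0.02, and -0.02 without TG mouse 1. Lgals3, galectin-3, had 89.2, 43.8 and 70.1 in TG striata and 34.3, 40.2 and 53.0 in WT striata, with TG mouse 2 inside the WT range (0.62, SE 0.26, unadjusted P value of 0.0378). Cst7, Itgax and Clec7a, which define that state, had means under 10 and were not tested. The median above therefore leaves them out and says little about that state.

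A second list of 43 microglial and myeloid genes outside the 43 above was read the same way. Of these, 42 were tested, 32 were below 0 and the median log2 fold change was -0.07. The median deviation was -0.11, -0.03 and -0.10 in TG mice 1, 2 and 3 and between -0.02 and 0.01 in WT mice. At an unadjusted P value under 0.05 by limma, 2 genes (4.76%) were lower, against 2.33% of all genes, and 0 were higher. In 3 genes (7.14%) every TG mouse was below every WT mouse, against 5.05% of all genes. Normalized read counts summed to 38870, 36797 and 33784 in TG striata and 38150, 38383 and 37299 in WT striata, with overlap. The most abundant gene of the list alone had a mean of 25654, so these sums mostly follow that gene. Cyth4, an exchange factor for small GTPases, had 361, 349.6 and 323 in TG striata and 388, 412 and 388 in WT striata, with every TG mouse below every WT mouse (-0.20, SE 0.08, unadjusted P value of 0.0277). Cst3, cystatin C, which astrocytes also make, gave -0.06 (SE 0.07). The downstream partners of Tyrobp were below 0 in 8 of 14 tested genes with a median of -0.06, and none passed an unadjusted P value of 0.05. Syk, the kinase that ITAM receptors recruit, gave -0.17 (SE 0.11).

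Of 15 ligands and receptors through which other cells signal to microglia, 10 were below 0 and the median was -0.02, with a range from -0.58 to 0.31. Cx3cl1, the ligand of Cx3cr1, had 29156, 26943 and 28237 normalized read counts in TG striata and 27599, 28723 and 27846 in WT striata (0.0023, SE 0.05). Apoe, the lipid carrier made by astrocytes and activated microglia, gave -0.08 (SE 0.06). Cd200, the neuronal ligand that restrains microglia, was higher at an unadjusted P value of 0.0162, with 2274, 2279 and 2164 in TG striata and 2133, 1998 and 1873 in WT striata (0.16, SE 0.06), and every TG mouse was above every WT mouse. No other of the 15 genes had an unadjusted P value under 0.05 by limma, and 1.98% of all genes were higher at it. In 5.06% of all genes every TG mouse was above every WT mouse. C3, the complement protein downstream of C1q, had 24.9, 32.6 and 13.6 in TG striata and 29.8, 57.0 and 22.6 in WT striata (-0.58, SE 0.38).

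Markers of cells that share genes with microglia or lie beside them were read as well. Border-associated macrophages, of the meninges and vessel walls, express C1q, Csf1r and several other genes of the list. Their own markers were below 0 in 8 of 10 tested genes with a median of -0.09, none past an unadjusted P value of 0.05. Mrc1, the mannose receptor, had 90.1, 98.9 and 86.7 in TG striata and 91.6, 121 and 114 in WT striata (-0.23, SE 0.14). All 12 markers summed to between 1103 and 1307 normalized read counts in TG mice and between 1127 and 1364 in WT mice, so the groups overlapped. The most abundant of these markers alone had a mean of 712, a large part of the sums. Of 12 genes of blood monocytes and neutrophils only Ly6c2 reached a mean of 10, and of 8 lymphocyte genes only Trbc2 did. No marker of either list was at 0 in all 6 libraries. Astrocyte, oligodendrocyte, oligodendrocyte precursor, endothelial and mural cell markers had medians of -0.05, -0.03, -0.05, -0.02 and -0.09, with 6 of 10, 6 of 10, 4 of 5, 7 of 10 and 5 of 5 genes below 0. Spiny projection neuron markers, the bulk of striatal neurons, had a median of -0.13 with -0.35, 0.16 and -0.13 in TG mice 1, 2 and 3 and 0.02 without TG mouse 1. The part of these cell types in the shift of the microglia-enriched genes was not tested.

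**Figure D5:**
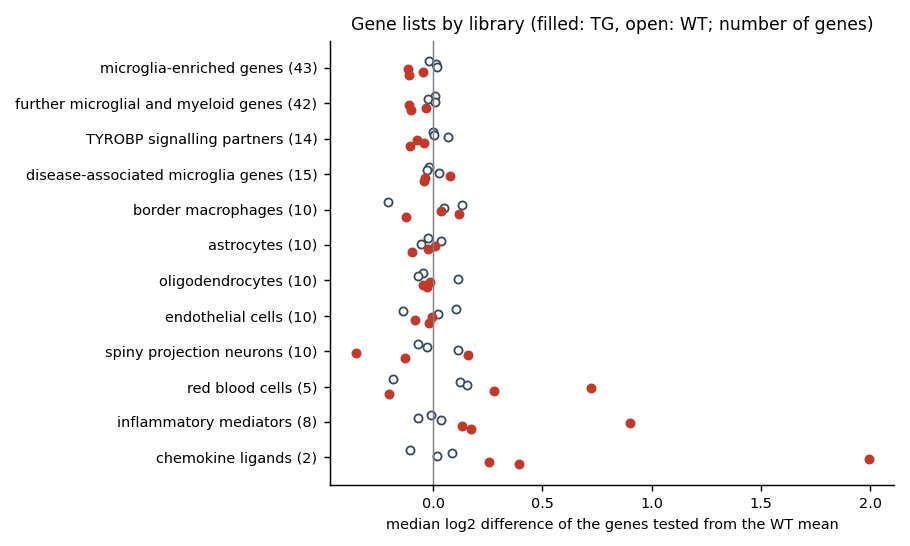
Median deviation from the WT mean (x axis, log2 scale) of each gene list in each of the 6 libraries (points, filled for TG and open for WT), with the number of tested genes in parentheses. The microglia-enriched genes lie at -0.11, -0.05 and -0.11 in the TG mice, and the inflammatory mediators lie at 0.90 in TG mouse 1.

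Levels per length differed by more than 2 orders of magnitude within the list. Per kilobase of annotated exon, Ctss had the highest level with 1289 normalized reads, followed by Lgmn with 1268, C1qa with 1118, C1qb with 1110.0, Csf1r with 684, C1qc with 596 and Tyrobp with 500.2. P2ry12 had 463. At the other end were Tlr2 with 11.4 and Ptprc with 7.36, which is spread over a long annotated exon length. The defining markers P2ry12, Tmem119, Cx3cr1, Csf1r, C1qa and Aif1 were thus all present in every library, with at least 120.1 normalized read counts each.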

How the data were processed

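Striatal RNA of 3 TG and 3 WT mice was prepared with a TruSeq RNA v2 kit and sequenced as paired-end reads. The submitters' processing notes name Trimmomatic 0.35, TopHat2 2.1.0, GRCm38, HTSeq and DESeq2, and the strand setting and annotation release are not given in the sources used here. The authors deposited 1 signal per gene and library, the read count divided by the DESeq2 size factor. Whole read counts were recovered from the deposited values within 0.01 for 100% of values. Genes were named by Ensembl identifier (45229 of 46078 in GENCODE M21), and 17605 with a mean of at least 10 normalized read counts were tested.

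The main test was limma 3.58.1 on log2(value + 1) with Benjamini-Hochberg adjustment over all genes tested, so fold changes are on that scale and those of rare genes are understated. It was tested on data of known fold change. Alternatives were edgeR 4.0.16 (quasi-likelihood), DESeq2 1.42.0 and limma-voom on recovered reads, TMM and library-total scaling, pseudocounts of 0.5 and 5, no filter, a mean of at least 50, leaving out 1 library at a time, a block for the replicate number, a shift by the median microglia-enriched gene, and an adjusted P value of 0.1. A P value by limma sets the difference of the groups against the spread between these mice. The variance of each gene is drawn there towards that of genes of similar level. The microglia-enriched genes and the 17 other lists were chosen with earlier results of these data known. In other lists, only the 3 most abundant tested genes and the gene of smallest P value in each direction were named, Il1b, Il6, Cxcl10, Cst7, Itgax and Clec7a being exceptions, and some genes of these lists are not reported here. Promoter sequences are from RefSeq (GRCm38.p6).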

Additional observations from a re-analysis of the deposited data

How the results depend on the processing

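In the main test, 0 of the 43 genes were called at an adjusted P value of 0.05 or 0.1, and 0 were called at 0.05 under each other setting tried. The count of genes lower at an unadjusted P value, 11, was 5 by DESeq2, 0 after the shift by the median gene, and 2 to 8 when each library was left out, lowest without TG mouse 3 or WT mouse 2. The count of higher genes, 1, was 2 by edgeR, 0 with a mean of at least 50 (which removes Ccl4) or with Ccl3 and Ccl4 left out, 2 after the shift and 0 to 2 when each library was left out. The median log2 fold change of the 43 genes, -0.10, was -0.0060 after the shift, by construction near 0, and -0.12 to -0.08 when each library was left out. That of the further 42 genes, -0.07, was 0.022 after the shift and -0.09 to -0.05 when each library was left out. Deviations of the same-numbered mice correlated at 0.0474, 0.0163 and 0.0928, and those of differently numbered mice between -0.125 and 0.0771. With 3 mice per group these values cannot show whether the replicate numbers pair the samples. With the replicate block, 12 genes were lower and 2 higher at an unadjusted P value and 0 were called, and the block changed no other call. Over all genes tested, 566 were lower at that P value with the block and 410 without it. Of 514 single-gene values outside the left-out libraries, 15 changed sign. Of these, Ptprc was -0.0064 by DESeq2, -0.0096 by edgeR and -0.014 by limma-voom, and 12 followed the shift: Mertk at 0.076, Fcrls at 0.068, Aif1 at 0.069, Csf1r at 0.0068, Inpp5d at 0.027, Olfml3 at 0.0065, Laptm5 at 0.017, Hpgds at 0.072, P2ry12 at 0.068, Unc93b1 at 0.040, Cd53 at 0.075 and Selplg at 0.0054. When each library was left out, 9 genes near 0 changed sign, with ranges of -0.11 to 0.096 for Mertk, -0.10 to 0.093 for Aif1, -0.067 to 0.048 for Hpgds, -0.12 to 0.062 for Cd53, -0.13 to 0.091 for Ptprc, -0.078 to 0.12 for Tlr7, -0.11 to 0.023 for Fcrls, -0.026 to 0.061 for Lgmn and -0.089 to 0.029 for P2ry12. The cause of these changes was not tested. With 3 mice per group and a median SE of 0.08, a shift of the size seen here in 1 gene is close to its own error, and Ccl4, Ccl3 and Tlr2 had the largest SEs of the list.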

Other observations

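Genes of cells beside the microglia gave a few further differences at an unadjusted P value under 0.05 by limma, none of which passed the adjustment over all genes tested. They were 1 of 10 astrocyte, 0 of 10 oligodendrocyte, 0 of 5 oligodendrocyte precursor, 1 of 10 endothelial and 1 of 5 mural markers. Over all genes 2.33% were lower and 1.98% higher at that P value. Every TG mouse was below every WT mouse in 5.05% of all genes and above in 5.06%. Vtn, vitronectin, a matrix protein made in the brain by pericytes, had 1767, 1533 and 1712 normalized read counts in TG striata and 1904, 1796 and 1984 in WT striata, with every TG mouse below every WT mouse (log2 fold change -0.18, SE 0.06, unadjusted P value of 0.0169). Ly6c1, a surface protein of brain endothelium, had 1006, 900.3 and 856 in TG striata and 847, 744 and 783 in WT striata, with every TG mouse above (0.22, SE 0.08, unadjusted P value of 0.0164). Its near copy Ly6c2, a marker of blood monocytes, had 57.5, 48.3 and 41.9 in TG striata and 34.3, 40.2 and 37.3 in WT striata (0.38, SE 0.19), and reads of such near-identical genes may be split between them. Sox9, the astrocyte transcription factor, had 849, 732 and 679 in TG striata and 924, 912 and 779 in WT striata (-0.21, SE 0.09, unadjusted P value of 0.0461).

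The 5 genes of red blood cells were above 0 with a median log2 fold change of 0.27 (0.09 without TG mouse 1), and had medians of 0.72, 0.28 and -0.20 in TG mice 1, 2 and 3. Hbb-bs, a beta globin, had 1273, 1021 and 781 in TG striata and 688, 921 and 938 in WT striata, with overlapping groups, and its log2 fold change was 0.26 (SE 0.16) and 0.09 without TG mouse 1.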
